A study of Mus musculus with 24 samples.

Results

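Broad shared H3K4me3 regions are the long end of the regions that both conditions have in common. They were taken from the common list of a ChIP-seq comparison of leukemic splenocytes with KDM1A intact or knocked down, as the regions of at least 5000 bp on autosomes 1 to 14 and 16 to 19. Of 40376 common regions on these 18 autosomes, 2146 met the rule, out of 43276 common regions and 63425 regions of every kind in the series. The 1000 to 2500 bp class, with 9504 common regions of the same autosomes, served for comparison. Both the length and the place in the common list come from the H3K4me3 signal, so the members were chosen by measured values, and their number and size are a description with no test.

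The cells were splenocytes of leukemic Eµ-TCL1A mice of strain C57BL/6, which carry the TCL1A oncogene under the Eµ enhancer and develop a B-cell disease resembling chronic lymphocytic leukemia. All animals of both groups carry the transgene. The wild-type group was labelled as not treated and the other group as KDM1A knockdown; how the knockdown was made, and the age and sex of the mice, are not stated in the labels. Each group had 3 biological replicates with 2 technical replicates, as 6 libraries precipitated with an H3K4me3 antibody and 6 inputs. The deposited result is 3 lists for the conditions as a whole. KD regions are labelled as unique to the knockdown, WT regions as unique to the wild type, and common regions as shared by the 2 conditions. The lists overlap, so the label unique does not mean that the mark was absent in the other condition. No list holds a value per library, so the spread between mice and the sequencing depth are not known. The lists hold no marker genes either, and the share of leukemic B cells in the splenocytes was not analysed here.

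Trimethylation of histone H3 lysine 4 marks the promoters of active genes, usually as a short domain over the nucleosomes around the transcription start. It is laid down by the SET1 and MLL families of methyltransferases, which are drawn to unmethylated CpG islands and to the transcribing polymerase, and it is removed by the KDM5 demethylases. Some promoters carry a much wider domain that runs into the gene body, and such broad domains are known from many cell types at genes that define the identity of the cell. KDM1A (LSD1) is a demethylase of H3K4 in its mono- and dimethylated forms and cannot act on the trimethylated form directly. The regions of these lists are positions on the genome build GRCm39. They were not assigned to genes here, because the gene table at hand belongs to another build.

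The broad regions were few but held nearly as much sequence as the far more numerous comparison class. They made up 5.32% of the common regions and 23.1% of the common length, 15.1 Mb of 65.5 Mb. The comparison class made up 23.5% of the regions and 23.7% of the length, 15.5 Mb. The median length of the broad regions was 6206 bp (quartiles 5482 and 7647 bp), against 1577 bp in the comparison class and 873 bp over all common regions. Lengths fell off without a gap at the threshold. The 5 members just inside it measured 5002 to 5004 bp and the 5 regions just outside it 4999 bp each. Above 7500 bp there were 564 members, above 10000 bp 216, above 15000 bp 41 and above 20000 bp 9.

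**Figure D1:**
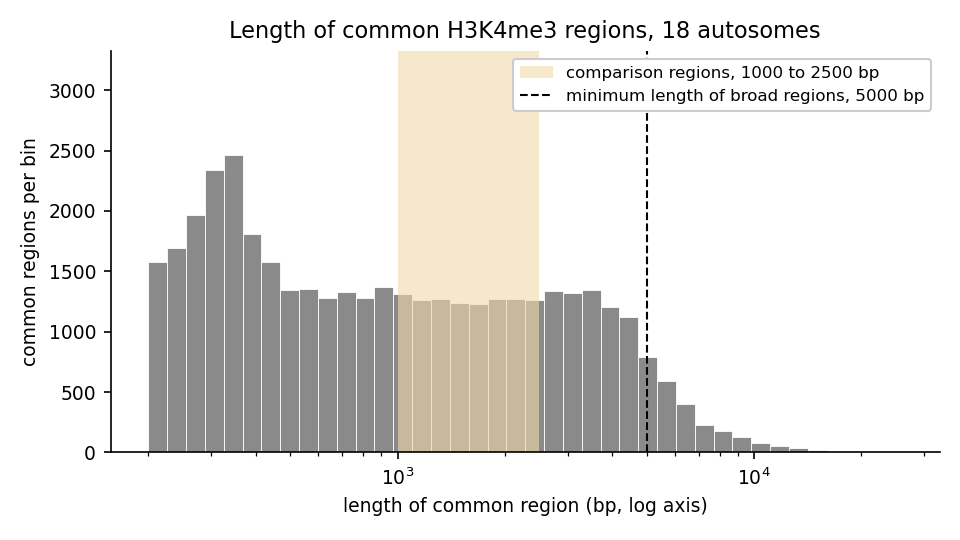
Number of common regions on 18 autosomes by length (bp, log axis, 40376 regions in bins of equal log width). The shaded band is the comparison class of 1000 to 2500 bp, and the 2146 broad regions lie to the right of the dashed line at 5000 bp, on the falling flank of the distribution.

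The deposited score is 1 value per region that neither headers nor labels define. It lies above 3 in every one-sided region (KD or WT) and reaches at most 2.86 in the common list. Whether it forms 1 scale across the lists, and whether it carries a direction, is not stated. Scores of the broad regions were more narrowly spread than those of the comparison class. Their median was 0.456 (quartiles 0.365 and 0.577), against 0.523 (0.340 and 0.814) in the comparison class. The neighbouring class of 2500 to 5000 bp had a still lower median, 0.438 (0.328 and 0.584), so low scores were not particular to the broad regions. The highest score of a broad region was 1.42, and that of a comparison region 2.45.

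The 15 longest members ran from 18861 to 25835 bp and lay on 9 chromosomes. The longest was found on chromosome 2 at 167772310 to 167798144, with a score of 0.395. It was followed by regions of 22566 bp on chromosome 3 at 103757382 to 103779947, of 22041 bp on chromosome 4 at 44694009 to 44716049. The next in order measured 22027 bp (chromosome 6, 117876242 to 117898268) and 21992 bp (chromosome 9, 32605448 to 32627439). A second member of this group, of 19189 bp, lay nearby on chromosome 9 at 32413468 to 32432656. Scores of the 15 ranged from 0.353 to 0.736, within the range of the other members. Of the 15, 10 were touched by no one-sided region, 4 by a KD region and 2 by a WT region, 1 of these by both. Over all members, 63.6% were touched by neither list, 27.5% by KD regions and 10.7% by WT regions. Among the 216 members of at least 10000 bp these shares were 48.6%, 43.5% and 12.0%.

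**Figure D2:**
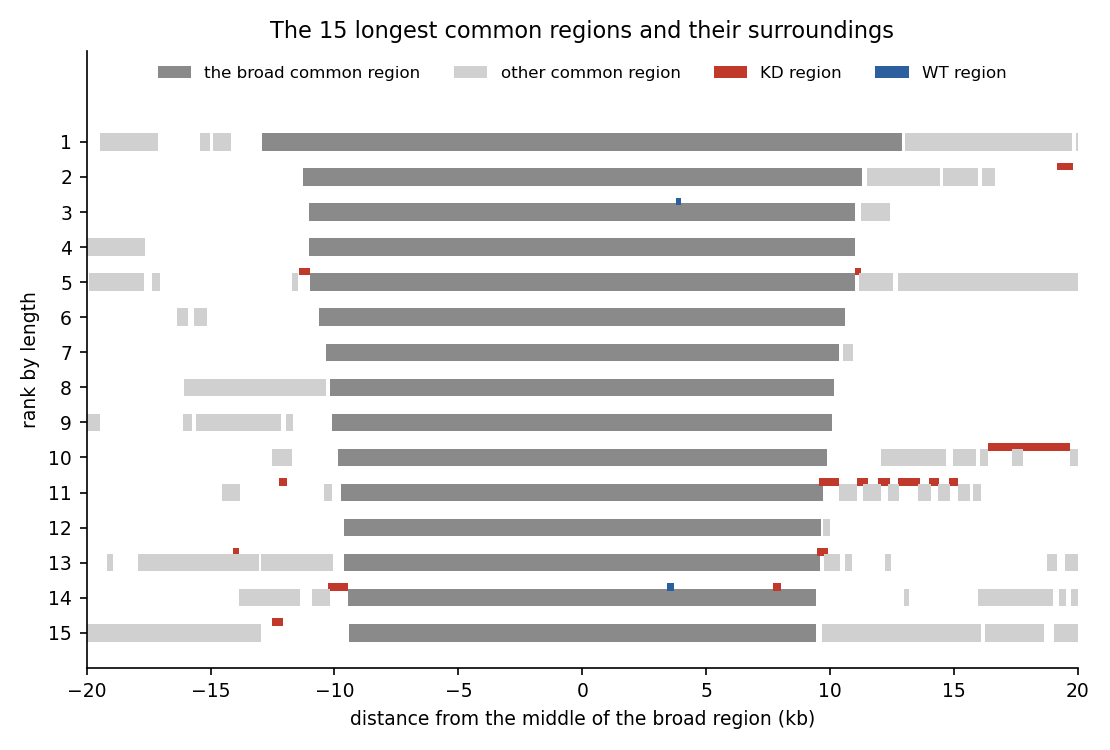
The 15 longest common regions in order of length (vertical axis), drawn around their middle, with every other region of the 3 lists within 20 kb (horizontal axis, distance in kb). Dark grey bars are the members, light grey bars other common regions, red bars KD regions and blue bars WT regions. Blue marks lie inside the third and the fourteenth region, and red marks sit mainly at the ends or outside.

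A one-sided region was said to touch a common region when the gap between them was at most 1 bp, which includes overlap. The lists do overlap. Of 747 contacts between a broad region and a KD region, 639 shared at least 1 base, as did 168 of 246 contacts with a WT region. A pair of situations was therefore kept apart: one-sided regions that lie wholly inside a common region, and those that reach past its end.

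Most broad regions were touched by neither list, and among those touched the KD list prevailed when one-sided regions of every score were counted. KD regions touched 591 of 2146 broad regions, 27.5% (95% Wilson interval 25.7 to 29.5%), beside 19.9% of all common regions. WT regions touched 229, or 10.7% (9.43 to 12.0%), beside 12.5% of all common regions. Both lists touched 39 members, 1.82% (1.33 to 2.47%), beside 0.815% of all. Neither touched 1365 members, 63.6% (61.5 to 65.6%), beside 68.4% of all. These intervals cover counting error alone, treat regions as independent and say nothing of the spread between mice. The lead of the KD list was not kept at higher scores. With one-sided scores of at least 5, KD contact was 5.64% and WT contact 5.59%. With scores of at least 10, KD contact was 0.466% and WT contact 2.24%. The shares of all common regions at these scores were not computed. Contacts with any common region had a lower median score for the KD list (4.30) than for the WT list (5.32). The loss of the KD lead can therefore not be read as a trait of the broad regions. In chromatin of bulk cells, a different share of cells carrying the mark and a different level per cell cannot be told apart. Length and contact are not independent measures here, since a one-sided region lying between common pieces is also where those pieces end.

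The comparison class had about equal contact with both lists. Of its 9504 regions 21.0% (20.2 to 21.9%) were touched by KD regions and 20.3% (19.5 to 21.2%) by WT regions. The broad class thus stood 6.50 percentage points higher for KD contact (95% Newcombe interval 4.47 to 8.59) and lower for WT contact (difference -9.67 points, interval -11.2 to -8.08). WT contact was lower in the broad class on 18 of 18 autosomes, and KD contact was higher on 17 of 18. Contact with both lists differed by 0.586 points (0.0441 to 1.27) and contact with neither by 3.76 points (1.48 to 5.998). The difference for neither turned to -6.48 points against regions of 2500 to 5000 bp, to -0.338 points against those of 500 to 1000 bp and to -0.966 points among common regions scoring at least 0.5. That for both turned to -0.0601 points with one-sided scores of at least 5.

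The difference in KD contact was not seen among KD regions of higher score. Counting one-sided regions with a score of at least 5 alone, KD regions touched 5.64% of the broad regions, a difference of -0.306 points from the comparison class, while the WT difference was -7.44 points. Against the class of 2500 to 5000 bp, the WT difference shrank to -1.29 points and the KD difference was 7.97 points. The size of the WT difference thus depends on which class is set beside the broad regions, and the 200 to 500 bp class had a lower WT contact than they did, 7.34% (6.93 to 7.79%).

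**Figure D3:**
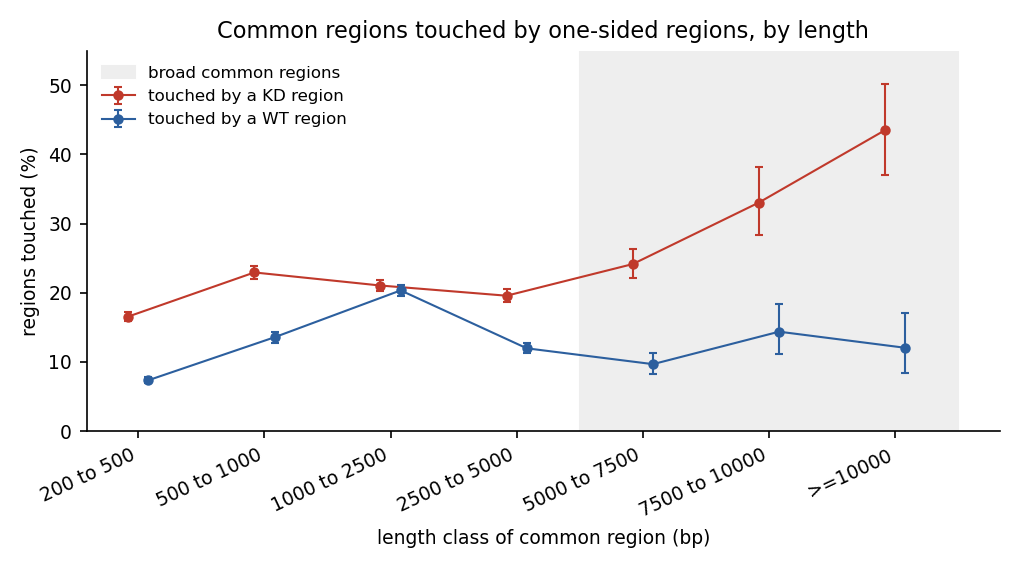
Percentage of common regions touched by a KD region (red) or a WT region (blue) in 7 length classes (bp), with 95% Wilson intervals that cover counting error alone; the grey field holds the broad regions. KD contact is highest in the class of at least 10000 bp, at 43.5%, and WT contact is highest in the class of 1000 to 2500 bp, at 20.3%.

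Within the broad regions, KD contact was more frequent the longer the region. It was 24.1% (22.1 to 26.3%) of 1582 regions of 5000 to 7500 bp, 33.0% (28.3 to 38.1%) of 348 regions of 7500 to 10000 bp and 43.5% (37.1 to 50.2%) of 216 longer regions, and the intervals of the shortest and the longest class do not overlap. WT contact was 9.67% (8.31 to 11.2%), 14.4% (11.1 to 18.4%) and 12.0% (8.35 to 17.1%) in the same classes, whose intervals overlap. Members touched by KD regions alone had a median length of 6685 bp, those touched by WT regions alone 6409 bp, and untouched members 6015 bp. Touched members also scored higher. The median was 0.554 for those touched by KD regions alone, 0.507 for WT regions alone, 0.565 for both and 0.419 for neither. Touched regions of the comparison class also scored higher, with a wider span, at 0.894, 0.559, 0.817 and 0.439. There the highest median was that of KD regions alone. Lengths followed the broad class in part. Against a median of 1569 bp for untouched regions, it was 1540 bp for KD regions alone, 1636.5 bp for WT regions alone and 1803 bp for both.

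A longer region offers more room for a one-sided region to lie inside it, whereas every region has 2 ends. Counted by ends, the classes differed little for the KD list and by more than counting error for the WT list. KD regions reached past 509 of 4292 ends of broad regions, 11.9% (10.9 to 12.9%), and past 11.3% (10.9 to 11.8%) of the ends in the comparison class, a difference of 0.564 points (95% Newcombe interval -0.476 to 1.66). WT regions reached past 186 ends of broad regions, 4.33% (3.76 to 4.98%), and past 10.1% (9.72 to 10.6%) of the ends in the comparison class, a difference of -5.81 points (-6.53 to -5.03). These intervals treat ends as independent, although a single one-sided region can be counted at 2 common regions. Of WT regions, 12 touched more than 1 broad region and 405 more than 1 comparison region. For KD regions these counts were 20 and 194. Over all common regions the shares were 11.4% (KD) and 6.59% (WT) of the ends. The comparison class is the length class with the highest WT share, and the shares next to it were 5.45% from 2500 to 5000 bp and 7.49% from 500 to 1000 bp. Among the members the KD figure was 10.4% (9.35 to 11.5%) from 5000 to 7500 bp, 14.4% (12.0 to 17.2%) from 7500 to 10000 bp and 18.8% (15.4 to 22.7%) above, so the longest regions stood apart by their ends as well. The WT figures were 4.11%, 5.60% and 3.94%.

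Regions lying inside were more often met in a broad region than in a comparison region, and were sparser per length. A KD region lay inside 212 broad regions, 9.88% (8.69 to 11.2%), against 3.58% (3.22 to 3.97%) of the comparison class. Per 100 kb of common sequence there were 1.57 inner KD regions in the broad class and 2.27 in the comparison class. Inner WT regions were found in 56 broad regions, 2.61% (2.02 to 3.37%), against 1.37% (1.15 to 1.62%), which is 0.397 and 0.863 per 100 kb. Of all common regions, 2.47% held an inner KD region and 0.850% an inner WT region. Over all common regions the densities were 1.62 (KD) and 0.543 (WT) per 100 kb, and in the class of 2500 to 5000 bp 1.48 and 0.479, so the broad class was near the overall density for KD and the lower density holds against the comparison class. Within the broad class the density of inner KD regions hardly varied with length, at 1.56, 1.58 and 1.61 per 100 kb in the 3 classes.

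**Figure D4:**
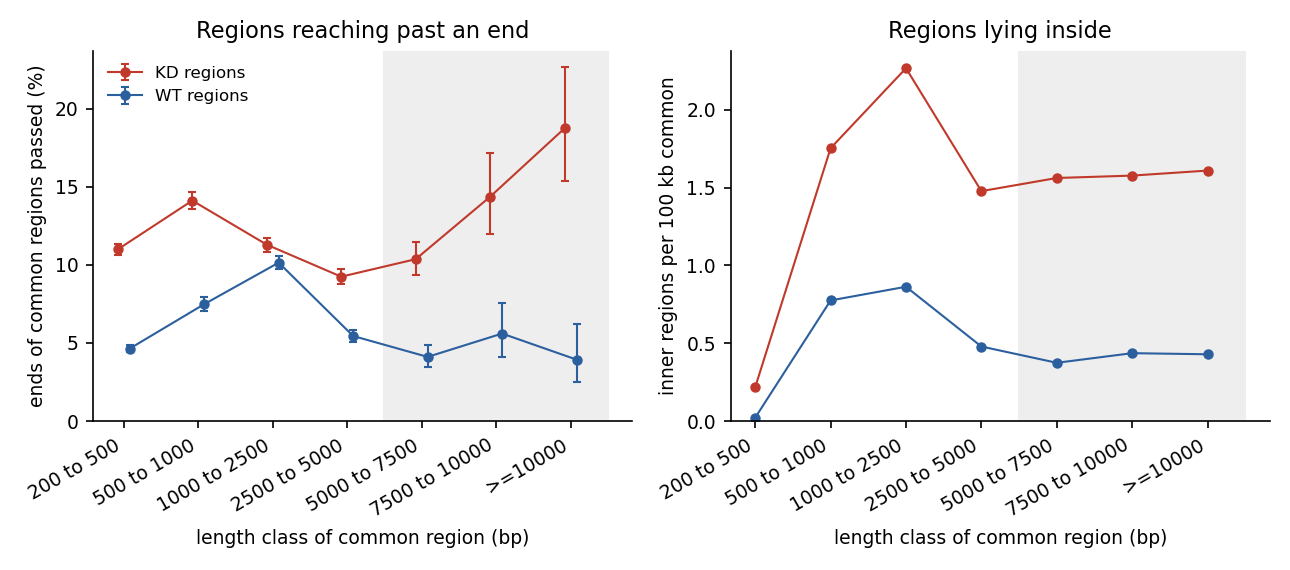
Left, percentage of the ends of common regions past which a KD (red) or WT (blue) region reaches, with 95% Wilson intervals; right, number of KD or WT regions lying wholly inside, per 100 kb of common sequence; both by length class (bp), with the broad regions in the grey field. Ends passed by KD regions reach 18.8% in the longest class, while inner KD regions stay between 1.56 and 1.61 per 100 kb over the 3 broad classes.

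The inner and the outer one-sided regions differed in size. The 238 inner KD regions had a median length of 268 bp and a median score of 3.50, and the 60 inner WT regions 259 bp and 3.39, close to the lowest scores of their lists. KD regions past an end had a median length of 348 bp (quartiles 282 and 532 bp) and a score of 4.31. WT regions past an end had a median length of 442 bp (336 and 593 bp) and a score of 6.65. They overlapped the member by a median of 46 bp (KD) and 5 bp (WT) and reached beyond it by a median of 300.0 bp and 422 bp. Inner KD regions lay nearer to the ends than inner WT regions did, at a median distance of 1106 bp from the nearer end, or 16.5% of the member's length, against 1978 bp and 29.2%. The comparison class had the same direction with a smaller gap, at 32.9% for inner KD regions and 36.35% for inner WT regions. One-sided sequence covered little of the members: 0.720% of their summed length was shared with KD regions and 0.154% with WT regions, and at most 20.3% and 10.1% of any single member.

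Most one-sided regions past an end led from the member to a further common region. Of 489 KD regions past an end of a broad region, 366 also touched another common region, 74.8% (70.8 to 78.5%). Of 174 such WT regions 165 did, 94.8% (90.5 to 97.3%). In the comparison class the shares were 65.1% (62.9 to 67.2%) and 89.2% (87.5 to 90.6%), and over all common regions 48.7% and 71.4%. The last pair is not a like comparison. A one-sided region that touches more than 1 common region can enter a class through any of them. This raises the shares of a class above those over all common regions, by an amount that was not computed. KD regions reached past both ends of 50 of 2146 broad regions, 313 of 9504 comparison regions and 1709 of all 40376 common regions. WT regions did so at 5, 69 and 486, so contact at both ends was rarer at broad regions than over all common regions. A KD region within 1 kb but without contact was seen beside 182 members that no KD region touched, 8.48% (7.38 to 9.74%), and a WT region beside 4, 0.186% (0.0725 to 0.478%). In the comparison class these shares were 6.05% (5.59 to 6.55%) and 1.49% (1.27 to 1.76%).

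Among the one-sided regions that touched a broad region, 727 were KD and 234 WT regions, so KD regions made up 75.7% (72.8 to 78.3%). Over all one-sided regions of the 18 autosomes the share was 72.3%, and among those touching the comparison class it was 58.2% (56.6 to 59.7%). The share at the broad regions was thus nearer to that of the lists as a whole than the share at the comparison class was. Put per list, 5.55% of the 13088 KD regions and 4.67% of the 5015 WT regions touched a broad region, against 17.6% and 33.0% for the comparison class. Of the members, 465 were touched by 1 KD region, 101 by 2 and 21 by 3, while 213 were touched by 1 WT region and 15 by 2. These numbers were counted for the broad regions alone, so no share of all common regions stands beside them.

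The longest KD stretches lay at members far apart in the genome. A member of 13200 bp on chromosome 4 at 134947256 to 134960455 was continued on its right by a KD region of 5153 bp (134959845 to 134964997, score 5.85). A member of 5016 bp on chromosome 1 at 170798764 to 170803779 was continued by a KD region of 3324 bp with a score of 10.9, and one of 7649 bp on chromosome 13 at 55590951 to 55598599 by a KD region of 3180 bp with a score of 9.95. In these 3, most of the KD stretch lay beyond the shared part. A member of 7011 bp on chromosome 18 at 50184345 to 50191355 had KD regions past both ends, of 822 and 1624 bp, and 2 more inside, of 239 and 688 bp. A member of 6845 bp on chromosome 8 at 121212211 to 121219055 had the same arrangement, with 418 and 2184 bp at the ends and 419 and 291 bp inside.

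The 5 longest WT stretches summed to 1141 to 3677 bp a member. On chromosome 9 a member of 6120 bp at 7762703 to 7768822 was preceded by a WT region of 3677 bp (7759031 to 7762707, score 8.37). A second member of chromosome 9, at 119805834 to 119812728, had WT regions of 1801 and 219 bp at its ends. A member on chromosome 12 at 102336712 to 102342535 was touched by 3 WT regions of 743, 226 and 227 bp, the latter 2 inside, and its score of 1.10 was high for a broad region. On chromosome 3 the member at 143903263 to 143910766 was continued by a WT region of 1157 bp (score 9.57), and on chromosome 10 the member at 98751497 to 98757931 was preceded by one of 1141 bp (score 8.86).

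In 22 of the 39 members touched by both lists, a KD region reached past one end and a WT region past the other (56.4%), as in 100 of 117 such regions of the comparison class (85.5%). The members with the longest such stretches lay on chromosome 12 at 75771764 to 75782051, with 1427 bp of KD on the left and 377 bp of WT on the right, and on chromosome 5 at 97145944 to 97153711, where 451 bp of WT lay on the left and 999 bp of KD on the right. The next lay on chromosome 7 at 126620089 to 126625118 (1030 bp of KD on the left and 403 bp of WT on the right) and on chromosome 14 at 45451557 to 45457196 (959 and 452 bp in the same order). In 9 members a WT region passed an end and KD regions lay inside alone, in 6 it was the reverse, and in 2 both lay inside alone.

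The broad regions were spread over the whole genome in rough proportion to the common regions. Their number per autosome ranged from 53 on chromosome 16 to 213 on chromosome 11, and per 100 common regions from 3.50 on chromosome 16 to 6.37 on chromosome 14 (median 5.34). Across the 18 autosomes the number of members and of common regions had a Pearson correlation of 0.92 and a Spearman correlation of 0.90, where both counts come from the same list. Per Mb the density was 0.938 in all, lowest on chromosome 16 (0.562) and highest on chromosome 11 (1.79) and chromosome 19 (1.79). The median length varied little, from 5861 to 6474 bp. On the chromosomes that the rule leaves out, 59 of 2095 common regions of chromosome 15 (2.82%) and 36 of 767 on X (4.69%) were at least 5000 bp long.

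KD regions outnumbered WT regions on each of these autosomes, at 23.7 to 40.8 KD and 8.22 to 17.2 WT regions per 100 common regions. With one-sided regions of every score counted, KD contact exceeded WT contact among the broad regions of all 18 autosomes, and among the comparison regions of 9 of 18. The lowest KD contact of the members was 16.8% (10.6 to 25.6%), on chromosome 12, followed by 17.0% (12.0 to 23.4%) on chromosome 2. The highest value was 38.7% (27.6 to 51.2%), on chromosome 18. Chromosome 7 followed with 37.8% (30.4 to 45.9%) and chromosome 11 with 37.6% (31.3 to 44.1%). The KD list as a whole was likewise sparse on chromosomes 12 and 2 (23.7 KD regions per 100 common regions on each) and dense on chromosomes 18, 7 and 11 (38.1, 37.7 and 39.4). WT contact ranged from 5.66% (1.94 to 15.4%) on chromosome 16 to 15% (9.70 to 22.5%) on chromosome 3. Chromosome 16 was the one autosome where KD contact was lower among the broad regions (22.6%) than in the comparison class (25%).

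**Figure D5:**
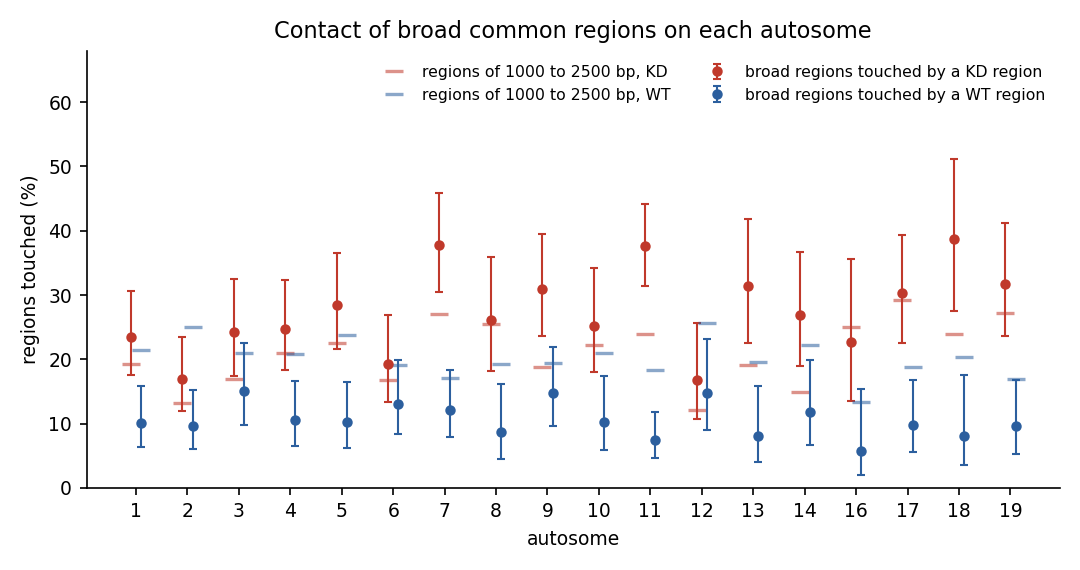
Percentage of broad regions touched by a KD region (red points) or a WT region (blue points) on each of 18 autosomes, with 95% Wilson intervals; short bars of the same colour give the class of 1000 to 2500 bp. Red points lie above blue points on every autosome shown, and every blue point lies below its bar.

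The spacing of broad regions is given as a description, because it was not computed for another class. The median distance to the nearest other member on the chromosome was 97.4 kb (quartiles 23.2 and 328 kb), and 777 members, 36.2% (34.2 to 38.3%), had one within 50 kb. Shared H3K4me3 of any length lay closer still: 66.4% (64.4 to 68.4%) had another common region within 1 kb, against 61.3% (60.3 to 62.3%) of the comparison class and 66.1% of all common regions. No gap between common regions was under 101 bp. In windows of 5 Mb, 405 of 465 windows with a common region held at least 1 member, with a median of 3 per window. Of all members, 50% lay in 89 windows, and the matching figure for common regions was not computed. The fullest window was on chromosome 19 at 5 to 10 Mb, with 32 members among 320 common regions. Of these 32 members, 12 were touched by KD regions and 0 by WT regions, beside 27.5% and 10.7% of all members. Next came chromosome 3 at 85 to 90 Mb, with 20 members among 256 common regions (4 touched by KD and 4 by WT regions). Chromosome 17 at 30 to 35 Mb also held 20, among 274 common regions (8 touched by KD and 1 by WT regions).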

How the data were processed

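The submitters' processing notes name MACS2 2.2.6, SAMtools 1.6, Bowtie2 2.2.9 and the build GRCm39. How they were set, which filters applied and whether replicates were pooled is not given in the sources used here. As deposited, the data are 3 lists of regions with 1 score each. Columns with values per library number 0, so no test across replicates was run, and lengths depend on how the authors joined enriched bases.

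The tools were scipy 1.17.1, numpy 2.4.6, pandas 2.3.3 and, for plots, matplotlib 3.10.9, under Python 3.11.15. Contact was a gap of at most 1 bp. The contact code was tested on simulated regions. Intervals are 95% Wilson intervals for shares and Newcombe intervals for differences. Coordinates are 1-based.

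The members, lists and alternatives were chosen with earlier results of these data known. Regions named are the 15 longest, the 5 on either side of the threshold, the 5 with the longest touching KD, WT or combined stretch (the member already among the 15 longest is not repeated), and the 3 fullest windows. The kinds of contact were separated after the overlap of the lists had been seen. Gene lists, gene starts, base composition and region sequences were not analysed here, because the reference tables are for GRCm38.p6.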

Additional observations from a re-analysis of the deposited data

How the results depend on the processing

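In 108 of 160 values recomputed under another setting, the reported counting interval (for a number of regions, a range of 1.5 times) was kept; 46 moved further and 6 changed direction, and where the alternative does not itself change the regions counted, the cause was not tested. Leaving out each autosome in turn moved none of the 72 shares, with KD contact at 26.4 to 28.4% and WT contact at 10.4 to 11.0%. At most 213 of the 2146 regions were dropped at a time, so these shares could hardly leave the interval. All 72 are among the 108 values that were kept. A minimum length of 4000 bp gave 4097 regions, touched by KD regions in 23.0%, WT regions in 9.20% and neither in 69.2%. A minimum of 7500 bp gave 564 regions, at 37.1%, 13.5% and 52.3%, with 2.84% touched by both, and a minimum of 10000 bp gave 216 regions, at 43.5% for KD, 4.17% for both and 48.6% for neither. Joining common regions within 1000 bp first gave 4134 stretches, of which 2044 held a broad region; 720 broad regions were unchanged by the joining. Contact within 100 bp gave 29.6% for KD. Contact within 1000 bp gave 36.0% for KD, 2.70% for both and 55.8% for neither, with differences from the comparison class of 8.93 points for KD and 0.0196 points for both. A one-sided score of at least 5 left contact at 5.64% (KD), 5.59% (WT), 0.140% (both) and 88.9% (neither), with differences of -0.306, -7.44, -0.0601 and 7.69 points, so those for KD and for both changed direction. A score of at least 10 left 0.466%, 2.24%, 0% and 97.3%, with differences of -0.134 points for KD (reversed), -2.49 for WT and 0 for both. One-sided regions of at least 500 bp left 6.90%, 3.40%, 0.0932% and 89.8%, with differences of 0.320 points for KD and -3.84 for WT. Against regions of 2500 to 5000 bp the difference was -1.29 points for WT and, reversed, -6.48 for neither. Against regions of 500 to 1000 bp it was -2.89 for WT, 1.38 for both and, reversed, -0.338 for neither. Among common regions scoring below 0.5 the KD difference was 9.18 points and that for neither 0.806; at 0.5 or above they were 10.3 and, reversed, -0.966. A neighbouring member lay within 20 kb of 22.8% and within 100 kb of 50.4% of members. The differences at other gaps, scores and lengths of one-sided regions were chosen after seeing the data. No paired analysis was possible because no value in the lists belongs to a single replicate, which also bars leaving a replicate out. Gene starts were not analysed here, and the limits set by depth are unknown, as the lists carry no depth.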

Other observations

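Broad regions also formed strings, which were looked for after the data had been seen and on which no test was run. Members with gaps of at most 50 kb were joined, and 11 strings held at least 5 members. The string with the most members lay on chromosome 19 at 8711407 to 8977629, where 11 members covered 84324 bp; 4 were touched by KD regions, 0 by WT regions and 7 by neither. On chromosome 6 at 48622881 to 48749097, 7 members covered 57437 bp, of which 0 were touched by KD regions and 3 by WT regions. Of 6 members on chromosome 17 at 34125328 to 34251039, 2 were touched by KD regions, 1 by a WT region and 3 by neither. Of 6 members on chromosome 2 at 90307735 to 90410602, 4 were touched by KD regions and 1 by a WT region. The 7 strings of 5 members ranged from 0 to 5 members touched by KD regions and from 0 to 2 touched by WT regions. Together 15 of their 35 members were touched by KD regions and 4 by WT regions, beside 27.5% and 10.7% of all broad regions.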
